A study of Mus musculus with 3 samples.

Results

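Haemoglobin, haem and iron handling genes were followed across single cells of injured mouse muscle. The set held 10 of the 32285 features in the files: the adult globin genes Hba-a1, Hba-a2, Hbb-bs and Hbb-bt, and Hmox1, Blvrb, Cd163, Spic, Slc40a1 and Fth1. They were chosen by symbol, with earlier values of the same libraries in view, so their levels are a description and no p-value is given for them. All 10 had at least 1 UMI (unique molecular identifier, 1 counted RNA molecule) in each library. The levels were taken per cell class, per macrophage cluster and per library, and the UMIs of the 4 globin genes were also summed.

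The cells came from tibialis anterior muscles of C57/BL6J mice, 4 days after injury by barium chloride, a salt that destroys muscle fibres. Young PBS were mice of 3 to 4 months given phosphate-buffered saline (PBS), old PBS were mice of 24 to 26 months given the same, and old rMETRNL were mice of 24 to 26 months given recombinant meteorin-like protein. Both agents were injected into the muscle right after injury and again at 24 and 48 h, so no group was uninjured. Each group was 1 library of 3 pooled samples, which the methods do not describe as separate mice, and the spread between mice therefore could not be measured. The intervals given are exact 95% intervals and cover counting error only.

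Red blood cells carry haemoglobin, a tetramer of alpha and beta globin chains with haem in each. Macrophages that engulf damaged red cells or take up free haemoglobin open the haem ring with haem oxygenase 1 (Hmox1), which releases iron and biliverdin. The iron is stored in ferritin, of which Fth1 encodes the heavy chain, or leaves the cell through ferroportin (Slc40a1), the known cellular iron exporter. Cd163 is the macrophage receptor for haptoglobin-bound haemoglobin, and Spic is a haem-induced transcription factor of iron-recycling macrophages. Blvrb encodes biliverdin reductase B, which reduces flavins and forms of biliverdin other than the one made by haem oxygenase.

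The genes lie at these positions in mm10. Hba-a1 is at chr11:32283511-32284465 and Hba-a2 at chr11:32296489-32297298, both on the plus strand. Hbb-bs is at chr7:103826534-103828096 and Hbb-bt at chr7:103812524-103813996, both on the minus strand. Hmox1 is at chr8:75093621-75100589 and Blvrb at chr7:27447978-27466144, both on the plus strand. Cd163 is at chr6:124304656-124330527 on the plus strand, Spic at chr10:88674772-88685015 on the minus strand, Slc40a1 at chr1:45908068-45926523 on the minus strand and Fth1 at chr19:9980598-9985098 on the plus strand.

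Storage and export carry the same sequence mark. The iron-responsive element is an RNA hairpin through which iron controls translation, and it was searched as the loop CAGTGN between 5 paired bases after an unpaired C. It was found in a 5′ UTR of 23 of 20899 genes (0.110%), among them Fth1, Slc40a1 and Ftl1, the light chain partner of Fth1, and in no other member. In Fth1 it lies at chr19:9982732-9982760 on the plus strand. In Slc40a1 it lies at chr1:45925465-45925493 on the minus strand, in 1 of 4 coding transcripts. In Ftl1 it lies at chr7:45459779-45459807 on the minus strand. The element acts on translation, which RNA counts do not measure. The elements are shown with the loop in capitals because storage and export differ so much in the results that follow.
Fth1: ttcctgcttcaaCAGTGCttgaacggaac
Slc40a1: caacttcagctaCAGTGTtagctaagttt
Ftl1: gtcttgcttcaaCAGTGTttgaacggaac

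The globin promoters are shown because the 4 globin transcripts were counted as a sum in what follows. They are the 110 bases before each RefSeq start (GRCm38.p6), at chr11:32283562-32283671, chr11:32296382-32296491, chr7:103827929-103828038 and chr7:103813924-103814033 in the order printed. Capitals mark 3 promoter motifs on either strand, which may adjoin. The motif CACCC is known from erythroid promoters. The motif CCAAT is known from many promoters. The motif TATAA lies in the element that places the start of transcription.
Hba-a1: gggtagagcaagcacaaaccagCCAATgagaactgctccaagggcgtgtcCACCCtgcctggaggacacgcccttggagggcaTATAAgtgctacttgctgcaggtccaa
Hba-a2: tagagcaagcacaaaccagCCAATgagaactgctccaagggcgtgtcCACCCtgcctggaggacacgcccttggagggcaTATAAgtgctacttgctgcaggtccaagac
Hbb-bs: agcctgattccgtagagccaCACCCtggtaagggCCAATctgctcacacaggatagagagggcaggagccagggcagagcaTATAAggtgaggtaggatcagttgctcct
Hbb-bt: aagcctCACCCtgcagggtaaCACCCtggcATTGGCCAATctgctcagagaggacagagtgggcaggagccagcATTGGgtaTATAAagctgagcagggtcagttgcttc

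Each of the 4 windows held all 3 motifs. Of 32851 mouse promoters cut to the same length, 29.6% held the motif CACCC. The motif CCAAT was found in 20.2% of them. The motif TATAA was found in 10.9%. A further motif, GATAAG, a core of the sites of GATA factors, was in none of the 4 windows and in 2.55% of all. The alpha promoters shared an unbroken run of 107 bases, while the beta promoters matched at 80 of 109 bases (73.4%). A match is a description of the letters and not evidence of a bound factor. The coding sequences matched at 425 of 426 bases between the alpha genes and at 440 of 441 between the beta genes. In the last 400 bases, 71.1% of the 90-base windows of Hba-a1 and 48.9% of those of Hbb-bs also occurred in the partner. Which copy a read came from is therefore uncertain, and most results below use the sum.

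The files held 12168, 12568 and 14012 cell barcodes with 218059089, 179295668 and 228966697 UMIs in young PBS, old PBS and old rMETRNL. After filtering and doublet removal 10318, 10019 and 11468 cells were kept, with median depths of 15100.5, 13698 and 14507 UMIs. Between 58 and 80 barcodes recurred in a pair of libraries. Of the kept cells, 6074, 5796 and 6622 were macrophage/monocyte-like and 1699, 1390 and 1785 were like fibro/adipogenic progenitors (FAP), stromal cells of muscle. All 14 markers listed for the macrophage/monocyte class and all 10 of the FAP class were higher in the class than in the other kept cells. A level is in CPM, the UMIs of the gene scaled to 1 common total for every class and library, and a gene was called different at a ratio of 1.5 or more in either direction with at least 50 UMIs over the 3 libraries.

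Most haemoglobin RNA sat in a small number of barcodes that held little else, most of them not among the kept cells. The files held 128760 haemoglobin UMIs, 163727 and 152099 in the libraries of young PBS, old PBS and old rMETRNL, between 0.0590% and 0.0913% of all UMIs. Of these, 76.8%, 88.8% and 87.0% were in barcodes that were left out. Haemoglobin made up 50% or more of the UMIs in 27, 37 and 33 barcodes, and these held 72.7%, 87.0% and 74.2% of all haemoglobin UMIs. Their median haemoglobin share was 92.7%, 90.1% and 90.4%. They held a median of 163, 226 and 174 genes, and 26, 36 and 31 of them fell under the minimum of 500 genes per cell.

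After the globins were set aside, genes known from late red cells were among the most enriched in these barcodes. Alas2, the erythroid enzyme that starts haem synthesis, was at 12283 CPM of non-haemoglobin UMIs over the 3 libraries, against 0.0499 CPM in kept cells with under 20 haemoglobin UMIs. Bpgm, the enzyme that makes the bisphosphoglycerate bound by haemoglobin, was at 5196 CPM. Slc25a37, the mitochondrial iron importer of erythroid cells, had 2120 CPM and Fech, the last enzyme of haem synthesis, 1663 CPM. Genes of muscle fibres were enriched as well. Acta1, skeletal muscle actin, was at 3949 CPM against 283 in those kept cells, the myosin light chain genes Mylpf and Myl1 at 2889 and 2369 CPM against 237 and 138, and Ckm, muscle creatine kinase, at 1496 CPM against 87.8. Of 9 listed erythroid markers, 5, 4 and 3 had a UMI in young PBS, old PBS and old rMETRNL, and Klf1, Rhag, Epb42 and Ermap were at 0 in all 3. These barcodes had a median of only 270 to 380 non-haemoglobin UMIs, so markers of low level would be missed.

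The globin mixture was adult and nearly the same in the 3 libraries. In the barcodes with 50% or more haemoglobin, Hbb-bs gave 56.5%, 56.6% and 56.0% of haemoglobin UMIs and Hba-a1 gave 19.7%, 20.7% and 19.9%. Hba-a2 gave 14.9%, 14.9% and 15.2%, and Hbb-bt gave 8.86%, 7.78% and 8.95%. The alpha genes together made up 34.7% (34.4 to 35.0), 35.6% (35.4 to 35.9) and 35.0% (34.8 to 35.3). The embryonic globins Hbb-bh1, Hbb-bh2, Hbb-y and Hba-x had 0 UMIs in these barcodes and in all kept cells of the 3 libraries. The share in kept cells with under 20 haemoglobin UMIs was lower, at 30.7% (29.1 to 32.3), 30.9% (29.5 to 32.3) and 30.5% (29.2 to 31.8), and the intervals of the pools did not overlap.

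**Figure D1:**
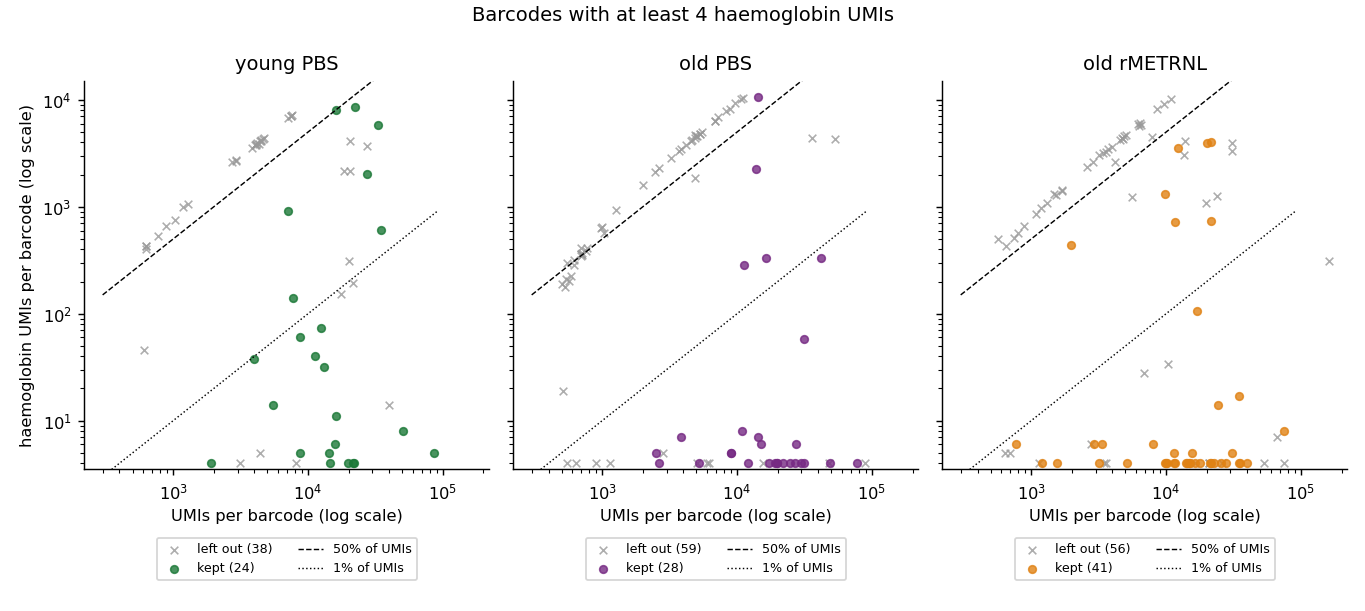
Haemoglobin UMIs against all UMIs of a barcode, both on log scales, for each barcode with at least 4 haemoglobin UMIs. Grey crosses are barcodes left out and coloured points are kept cells, with their numbers in the legends. The dashed and dotted lines mark 50% and 1% of UMIs, and most crosses lie above the dashed line. The kept cells scatter below it, but for 1 cell of young PBS and 1 of old PBS.

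Among kept cells the same concentration held. Only 12, 6 and 8 kept cells had 20 or more haemoglobin UMIs, and they carried 89.03%, 76.4% and 75.5% of the haemoglobin UMIs of kept cells. The highest held 8664, 10729 and 4036 in the libraries of young PBS, old PBS and old rMETRNL. That of old PBS was 74.9% haemoglobin and fell in a myocyte-like cluster led by Ckm. By contrast 73.7%, 65.9% and 66.7% of kept cells had no haemoglobin UMI, and a further 26.1%, 33.8% and 33.0% had 1 to 3. Between these extremes, 4 to 19 UMIs were found in 12, 22 and 33 cells.

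Below 20 UMIs, haemoglobin was found in every cell class. The mean was 0.317, 0.432 and 0.423 haemoglobin UMIs per kept cell. Over classes of at least 50 cells it ran from 0.270 to 0.380 over the 8 such classes of young PBS, from 0.364 to 0.490 over 10 of old PBS and from 0.283 to 0.466 over 10 of old rMETRNL. The median depth of these classes ran from 5820 to 29824.5, from 2094.5 to 27703 and from 2270 to 28891.5 UMIs. Scaled to CPM, the same counts ran from 10.7 to 41.5, from 14.03 to 132 and from 13.1 to 132, with the shallow classes highest. Some classes differed beyond counting error, such as FAP-like cells at 0.387 (0.358 to 0.417) and endothelial-like cells at 0.466 (0.424 to 0.511) haemoglobin UMIs per cell in old rMETRNL. T and natural killer cell-like (T/NK-like) cells, which make no haemoglobin, had means of 0.341, 0.413 and 0.460. Macrophage/monocyte-like cells had means of 0.317 (0.303 to 0.332), 0.421 (0.405 to 0.438) and 0.421 (0.406 to 0.437).

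The intervals of T/NK-like cells, 0.267 to 0.430, 0.329 to 0.512 and 0.355 to 0.588, held the macrophage mean in each library. Within macrophage/monocyte-like cells depth was compared over 4 equal groups of cells. From the shallowest to the deepest, the mean was 0.310, 0.307, 0.338 and 0.313 in young PBS, with intervals that overlapped, while the median depth went from 8556 to 24643 UMIs. In old PBS it was 0.347 (0.317 to 0.379), 0.474 (0.440 to 0.511), 0.423 (0.390 to 0.458) and 0.440 (0.407 to 0.476), so the shallowest group was lower than the others. In old rMETRNL it was 0.388, 0.430, 0.421 and 0.446, with intervals that overlapped.

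**Figure D2:**
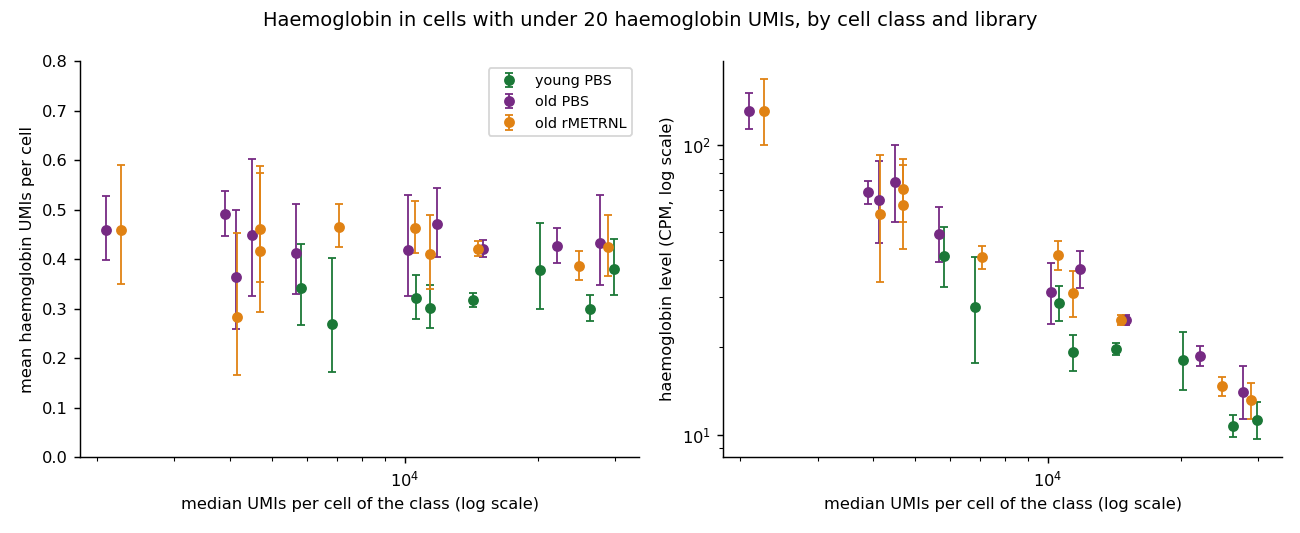
Mean haemoglobin UMIs per cell (left) and haemoglobin level in CPM on a log scale (right) against the median depth of the cell class on a log scale, for kept cells with under 20 haemoglobin UMIs. Each point is 1 class of at least 50 cells in 1 library with its 95% counting interval. The means lie between 0.270 and 0.490 at every depth, and the CPM values go down from 132 to 10.7 as the depth goes up.

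Summed over all macrophage/monocyte-like cells, haemoglobin was at 281 CPM (278 to 285), 50.9 (49.5 to 52.4) and 157 (155 to 160) in the libraries of young PBS, old PBS and old rMETRNL. Ratios were 0.181 (0.176 to 0.187) for old PBS over young PBS and 3.09 (2.99 to 3.19) for old rMETRNL over old PBS. These ratios rested on 9, 2 and 7 cells with 20 or more haemoglobin UMIs. Without them the levels were 19.7, 24.96 and 24.93 CPM and the ratios became 1.26 (1.19 to 1.34) and 0.999 (0.945 to 1.05), so the direction with age turned and the difference with treatment was gone. In FAP-like cells haemoglobin was at 11.995 (11.0 to 13.0), 18.7 (17.3 to 20.3) and 14.7 CPM (13.6 to 15.8). In all kept cells the ratios were 0.738 (0.724 to 0.751) and 0.844 (0.827 to 0.861), and with every barcode in the files they were 1.55 and 0.727.

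The 18 haemoglobin-rich macrophage/monocyte-like cells had a lower summed level of Hmox1 than the others, but not a lower share of cells with a UMI in every library. Relative to non-haemoglobin UMIs, Hmox1 was at 289 CPM (209 to 391) in the 9 cells of young PBS and at 143 CPM (74.0 to 250.1) in the 7 of old rMETRNL, and the 2 of old PBS had 2 UMIs. In the other macrophages it was at 528, 396 and 479 CPM in young PBS, old PBS and old rMETRNL. An Hmox1 UMI was found in 88.9%, 50% and 57.1% of the rich cells, against 74.2%, 82.7% and 80.5% of the others. The share in young PBS thus went the other way. Over the 3 libraries, Blvrb was at 207 CPM (154 to 271) in the rich cells against 243 (241 to 245) in the others, and Fth1 at 9806 CPM against 13902. Slc40a1 had 0 UMIs in them, Cd163 had 1 and Spic had 4 in 1 cell. They held 41 of 42, 11 of 15 and 37 of 45 of the Alas2 UMIs of macrophage/monocyte-like cells in young PBS, old PBS and old rMETRNL. What brought haemoglobin and Alas2 RNA into these barcodes was not tested.

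Hmox1, the haem-degrading enzyme, had its highest level in macrophage/monocyte-like cells, compared with the other named classes of each library. There it was at 527 CPM (523 to 532), 396 (392 to 400) and 478 (474 to 482) in the libraries of young PBS, old PBS and old rMETRNL. Pericyte/smooth muscle-like cells, with 24, 24 and 16 cells holding a UMI, were at 249 CPM (217 to 284), 288 (246 to 334) and 83.8 (62.2 to 110), next to macrophages in young and old PBS, and FAP-like cells had 176, 218 and 230 CPM. The order among FAP-like, tenocyte-like and endothelial-like cells differed between libraries, and T/NK-like cells had only 24.8, 37.0 and 16.5 CPM. In macrophage/monocyte-like cells the ratio was 0.752 (0.742 to 0.762) with age and 1.21 (1.19 to 1.22) with treatment, neither past 1.5. In FAP-like cells it was 1.24 (1.20 to 1.28) and 1.06 (1.03 to 1.09). In pericyte/smooth muscle-like cells it was 1.15 (0.940 to 1.42) with age and 0.291 (0.208 to 0.401) with treatment, past 1.5-fold lower. In tenocyte-like cells it was 0.647 (0.572 to 0.731) with age, also past 1.5-fold lower, and 1.15 (1.01 to 1.31) with treatment. The differences between classes were not tested.

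Hmox1 was unevenly spread over macrophages. The 100 cells with most Hmox1 held 36.4% of its UMIs, 20.9% and 29.3% in the libraries of young PBS, old PBS and old rMETRNL. Without the 10 highest cells of each library the ratios were nearly the same, 0.757 with age and 1.19 with treatment. Shares of cells with a UMI were lowest in young PBS, where the CPM was highest, at 74.3%, 82.6% and 80.5%, and at 33.5%, 39.0% and 39.4% when each cell was thinned to 2000 UMIs. The share in T/NK-like cells was 12.8%, 17.4% and 7.91%, and 4.35%, 7.50% and 3.08% after thinning. The median depth was 14264.5, 15038 and 14649 UMIs in macrophages and 5820, 5663 and 4679 UMIs in T/NK-like cells. With the mean of per-cell CPM in place of summed UMIs the ratios were 0.998 and 1.001. No order of the libraries is therefore read from the shares.

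Among macrophage clusters, Hmox1 was highest in cluster 14, led by Cd163, F13a1 and Lyve1, at 1268, 1202 and 1145 CPM. That cluster made up 8.81%, 12.2% and 15.8% of macrophage/monocyte-like cells. The clusters were found from all but the member and pathway genes, but genes that go with Cd163 took part, so these levels describe the clusters. Cluster 2, led by Dnase1l3, Ccrl2 and Slc7a11, had 224, 254 and 172 CPM, the lowest level in young PBS and old rMETRNL. In old PBS clusters 6 and 10 were lower, at 218 and 237 CPM. The age ratio was under 1 in 7 of 8 clusters and past 1.5-fold lower in 3. It was 0.425 (0.404 to 0.447) in cluster 6, led by the cell cycle genes Birc5 and Top2a, 0.439 (0.3996 to 0.482) in cluster 10, led by the interferon-induced genes Ifit2 and Cmpk2, and 0.558 (0.544 to 0.572) in cluster 4, led by Atp6v0d2, Gpnmb and Spp1. The treatment ratio was over 1 in 5 of 8 clusters and ran from 0.678 in cluster 2 to 1.501 in cluster 6.

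Blvrb, the flavin and biliverdin reductase B, was also highest in macrophages among the named classes. Its level was 251 CPM (248 to 254), 219 (216 to 222) and 258 (255 to 261), against 108, 107 and 114 CPM in FAP-like cells. The ratio was 0.870 (0.854 to 0.886) with age and 1.18 (1.16 to 1.20) with treatment, both short of 1.5. Cluster 14 differed most: Blvrb was at 420, 270 and 431 CPM there, a ratio of 0.642 (0.607 to 0.679) with age and 1.598 (1.52 to 1.68) with treatment. In cluster 4 it was nearly level, at 251, 242 and 246 CPM. The thinned share of macrophages with a Blvrb UMI was 35.2%, 30.9% and 36.4%, in the same order as the CPM, and unthinned it was 84.4%, 82.7% and 84.3%. In T/NK-like cells the thinned share was 1.93%, 5% and 5.38%.

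**Figure D3:**
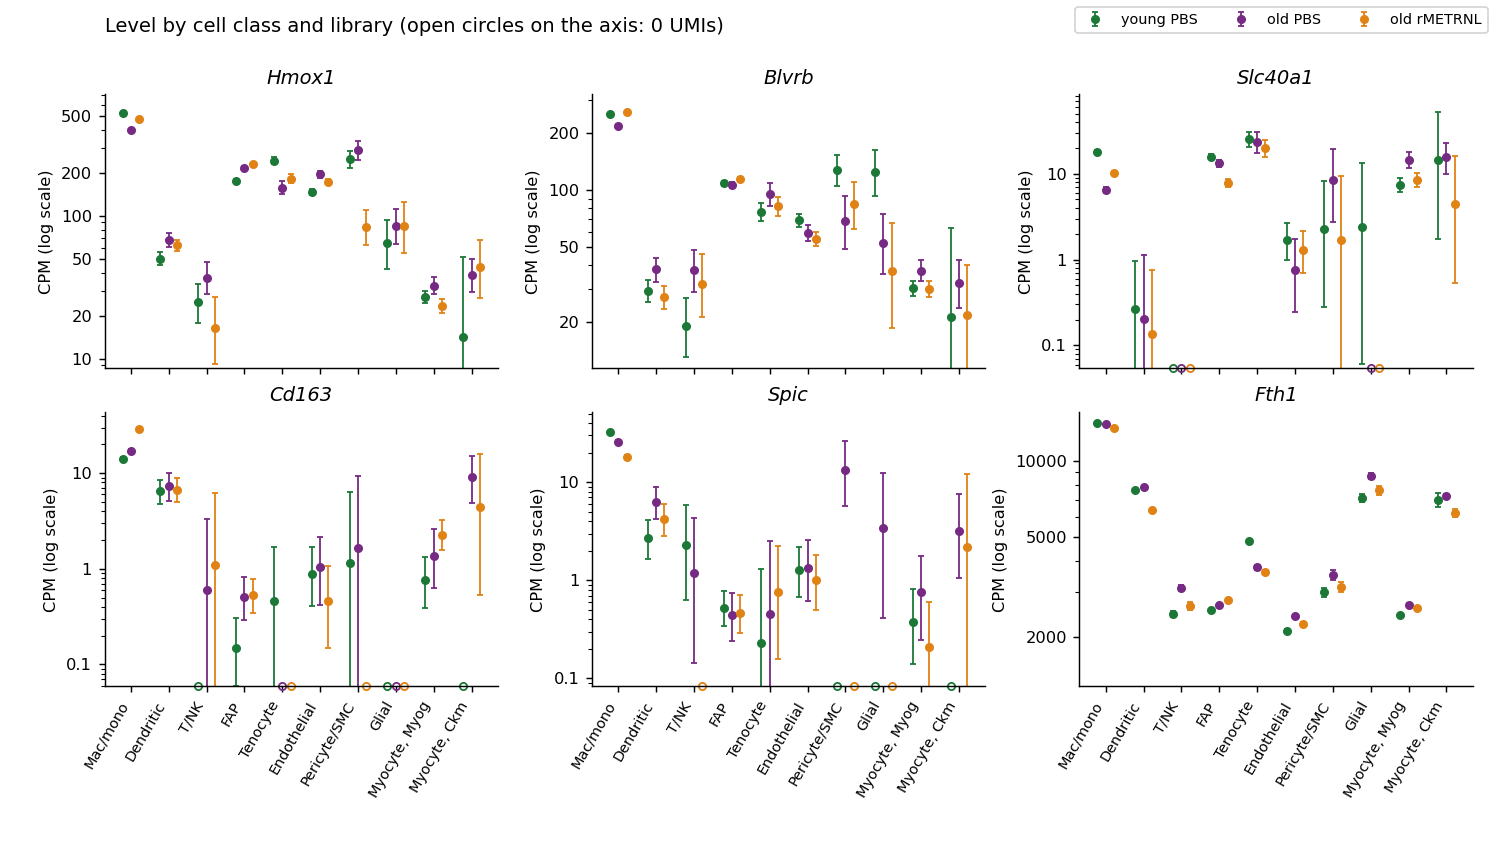
Level of 6 genes in CPM on log scales in 10 cell classes of the 3 libraries, with 95% counting intervals that run to the axis where they reach below it. Open circles on the axis stand for 0 UMIs. Hmox1, Blvrb, Spic and Fth1 have their highest plotted level in macrophage/monocyte-like cells of each library, and Slc40a1 is at 0 in T/NK-like cells but present in tenocyte-like, FAP-like and myocyte-like cells.

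Slc40a1, the iron exporter, had the age ratio farthest from 1 among the non-globin members in macrophages. In macrophage/monocyte-like cells it was at 17.7 CPM (16.9 to 18.6), 6.40 (5.91 to 6.92) and 10.1 (9.53 to 10.7) in the libraries of young PBS, old PBS and old rMETRNL. Young PBS was highest and the old PBS library lowest, with intervals apart. The ratio was 0.361 (0.329 to 0.396) with age, 1.58 (1.43 to 1.74) with treatment and 0.570 (0.529 to 0.615) for old rMETRNL over young PBS. A UMI was found in 7.21%, 5.003% and 5.19% of macrophages, and in 2.27%, 1.08% and 1.39% after thinning. It was found in 0 of 211, 0 of 201 and 0 of 139 T/NK-like cells, where the limit for a count of 0, set at 3 cells with a UMI, comes to 1.42%, 1.49% and 2.16% of cells. At their lower depth this sets no limit on the share of cells that express the gene.

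The lower level with age was seen in every macrophage cluster. The age ratio was under 1 in 8 of 8 clusters, from 0.169 in cluster 10, with 5 UMIs in old PBS, to 0.586 in cluster 1, and the interval lay below 1 in 7. Treatment was less even, with a ratio over 1 in 6 of 8 clusters, an interval above 1 in 3 and a range from 0.680 to 3.77. The highest was cluster 14, where Slc40a1 was at 33.0, 8.36 and 31.5 CPM, a ratio of 0.253 (0.189 to 0.334) with age and 3.77 (2.89 to 4.97) with treatment. In cluster 3, led by Cx3cr1 and Hes1, it was at 23.0, 8.45 and 8.82 CPM, so the library from treated mice stayed near old PBS. Cluster 1, led by the monocyte gene Ly6c2, had 2.09, 1.22 and 1.83 CPM.

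Few cells carried Slc40a1. The 10 highest macrophages held 19.4%, 19.97% and 31.2% of its UMIs, and without them the ratios were 0.359 with age and 1.36 with treatment, the latter under 1.5. A finer clustering placed it above all in sub-cluster 12, a group of 68, 76 and 74 cells led by Cd209f, Vsig4 and Cd163, at 121, 91.2 and 98.3 CPM. The 8 clusters at the same weights in each library gave 0.357 with age and 1.49 with treatment.

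Slc40a1 was not confined to macrophages. Tenocyte-like cells had 25.1 CPM (20.6 to 30.3), 23.4 (17.5 to 30.7) and 19.9 (15.7 to 24.8), with intervals that overlapped. In FAP-like cells it was at 15.8 (14.7 to 16.95), 13.1 (11.9 to 14.5) and 7.83 CPM (7.05 to 8.67), a ratio of 0.832 (0.737 to 0.940) with age and 0.596 (0.517 to 0.687) with treatment. The treatment ratio thus pointed down in FAP-like cells and up in macrophages. The difference between these classes was not tested. Myocyte-like cells of the Myog cluster had 7.38 (6.11 to 8.85), 14.5 (11.7 to 17.7) and 8.50 CPM (7.06 to 10.1), where old PBS was the highest.

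Cd163, the haemoglobin scavenger receptor, ran in another order. In macrophage/monocyte-like cells it was at 13.99 CPM (13.3 to 14.8), 17.2 (16.4 to 18.01) and 28.6 (27.6 to 29.6), so that old rMETRNL was highest. The ratio was 1.23 (1.14 to 1.32) with age and 1.67 (1.57 to 1.77) with treatment. It was found in 5.15%, 7.92% and 10.2% of macrophages, and in 2.01%, 3.32% and 3.78% after thinning, against 0, 1 and 1 of the T/NK-like cells. Cluster 14 held most of it, at 132, 155 and 168 CPM, and within that cluster the ratios were 1.17 (1.08 to 1.28) and 1.09 (1.01 to 1.17). With the 8 clusters at the same weights in each library the treatment ratio was 1.11, below 1.5. Cluster 14 made up 12.2% and 15.8% of macrophages in these libraries. In sub-cluster 12 Cd163 was at 437, 474 and 656 CPM. FAP-like cells had 48 UMIs of Cd163 over the 3 libraries, under the minimum of 50.

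Spic, the transcription factor of iron-recycling macrophages, was lower with age and lower again in old rMETRNL. Its levels in macrophage/monocyte-like cells were 32.4 CPM (31.3 to 33.5), 25.7 (24.7 to 26.7) and 18.04 (17.3 to 18.8). The ratio was 0.793 (0.752 to 0.836) with age and 0.703 (0.663 to 0.746) with treatment, each short of 1.5-fold, while old rMETRNL over young PBS was 0.557 (0.527 to 0.589). The thinned share of cells with a UMI was 5.73%, 5.07% and 3.33%, in the same order as the unthinned 20.9%, 17.7% and 14.2%, and the thinned share was 0 in T/NK-like cells.

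Among the 8 macrophage clusters Spic was highest in cluster 2, at 53.7, 69.0 and 52.3 CPM, where Hmox1 was among the lowest and Cd163 had 0.350, 0.672 and 1.18 CPM. In cluster 14 it was at 24.6, 19.2 and 17.03 CPM. Age ratios were under 1 in 7 of 8 clusters and treatment ratios in 7 of 8, with cluster 2 the exception for age at 1.28 (1.16 to 1.42) and cluster 6 the exception for treatment at 1.03 (0.734 to 1.44). Among the 13 finer sub-clusters it was highest in sub-cluster 12 of each library, the cells richest in Cd163, at 63.1 CPM (49.4 to 79.3), 107 (88.0 to 130) and 60.5 (47.1 to 76.6). Sub-cluster 1 came next, at 57.6, 72.2 and 46.1 CPM, with intervals apart from those of sub-cluster 12 in old PBS and overlapping in the other two libraries. Hmox1 was at 1338, 1842 and 1361 CPM in sub-cluster 12.

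Fth1, the iron-storing ferritin heavy chain, barely differed. It was at 14166 CPM, 14062.5 and 13517.5 in the libraries of young PBS, old PBS and old rMETRNL, and 99.9% or more of macrophages had a UMI even after thinning. The ratios were 0.993 (0.990 to 0.995) and 0.961 (0.959 to 0.963). These intervals exclude 1 because the counts are large, and they say nothing of the spread between mice. Cluster 4 had the highest level, at 18031, 17132 and 16869 CPM, and cluster 14, which had most Hmox1 and Cd163, had the lowest in each library, at 10404, 7814 and 9314 CPM. In cluster 14 the ratio was 0.751 with age and 1.19 with treatment. Sub-cluster 7, which matched no marker list when set against the other sub-clusters, reached 25175, 22624 and 21301 CPM.

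Outside the macrophages Fth1 was high in dendritic-like, glial-like and Ckm-cluster myocyte-like cells. Glial-like cells had 7146, 8747 and 7639 CPM, and dendritic-like cells 7664, 7845 and 6372 CPM. FAP-like cells had 2563, 2679 and 2797 CPM, a ratio of 1.04 (1.04 to 1.05) with age and the same with treatment.

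**Figure D4:**
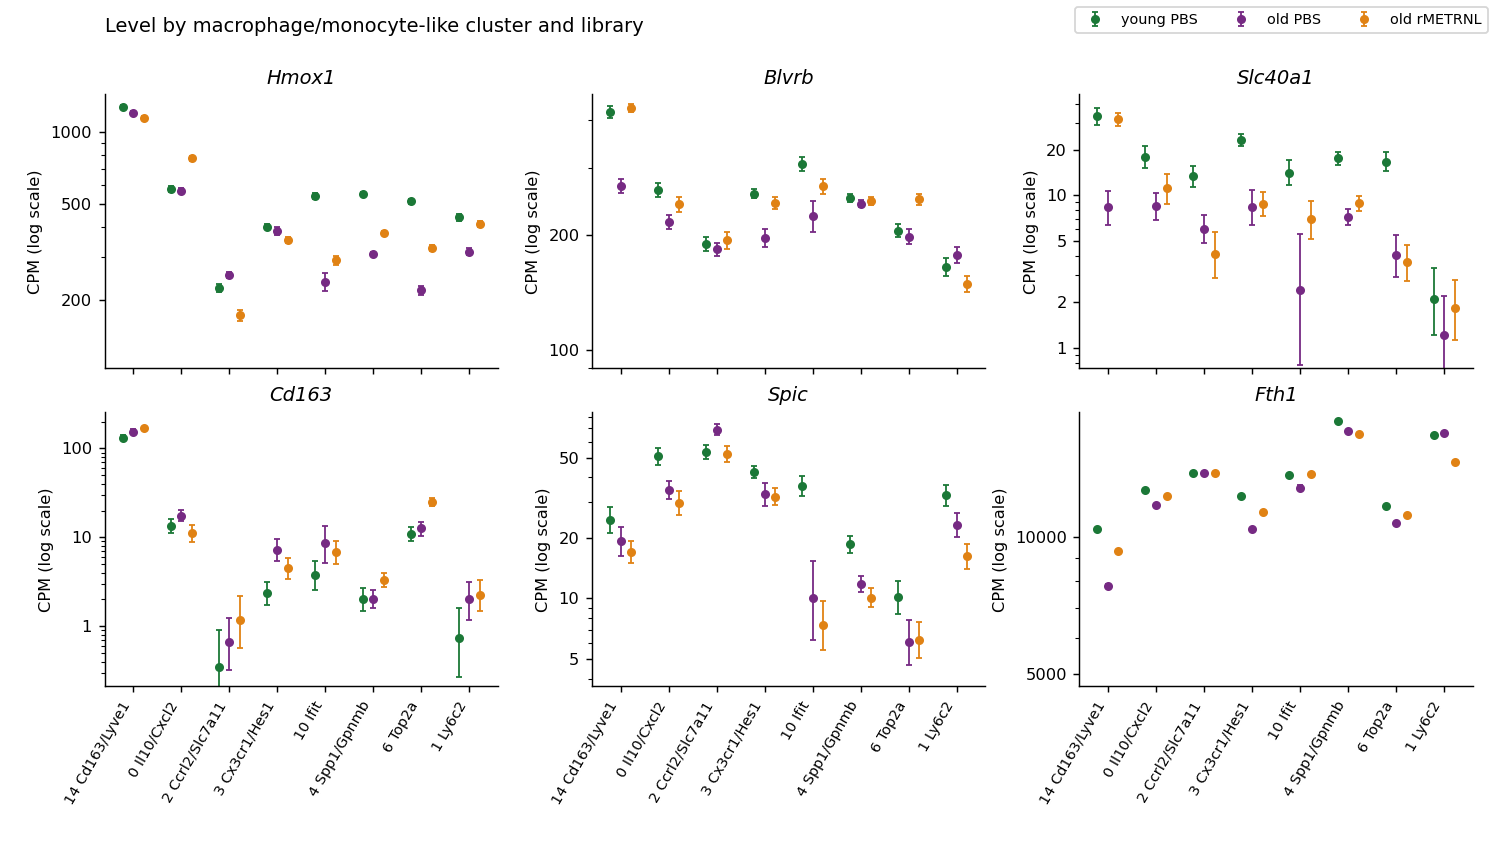
Level of the same 6 genes in CPM on log scales in the 8 macrophage/monocyte-like clusters of the 3 libraries, with 95% counting intervals. Clusters are named by number and leading genes. Slc40a1 of young PBS lies above old PBS in all 8 clusters, Cd163 stands out in cluster 14 at 132 to 168 CPM, and Spic is highest in cluster 2 at 52.3 to 69.0 CPM.

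Counted together, 5 of the 10 members passed 1.5-fold with age in macrophage/monocyte-like cells, all lower: the 4 globin genes and Slc40a1. Of all 14335 genes with 50 UMIs there, 6.89% were that much lower and 6.54% higher. The median log2 ratio was -0.94 over the members and -0.00 over all genes. With treatment 6 members were past 1.5-fold higher, the globin genes, Slc40a1 and Cd163, and none lower, where 5.91% of all genes were higher and 3.86% lower. The medians were 0.70 and 0.05. Without the cells with 20 or more haemoglobin UMIs the counts were 1 with age and 2 with treatment, Slc40a1 alone and Slc40a1 with Cd163. The 4 globin genes are not independent, since their copies share reads and the same cells carried them.

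In FAP-like cells 9 members had 50 UMIs. With age 3 were past 1.5-fold higher, Hba-a1, Hbb-bs and Hbb-bt, and none lower, where 7.8% of 14417 genes were higher and 7.39% lower. Their median log2 ratio was 0.31 against -0.04 over all genes. With treatment Slc40a1 was lower and none higher, where 5.43% of genes were higher and 4.94% lower, with medians of -0.15 and 0.01. Under the limit of 20, FAP-like cells had 0.300, 0.427 and 0.387 haemoglobin UMIs per cell. Macrophage/monocyte-like cells had 0.317, 0.421 and 0.421.

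**Figure D5:**
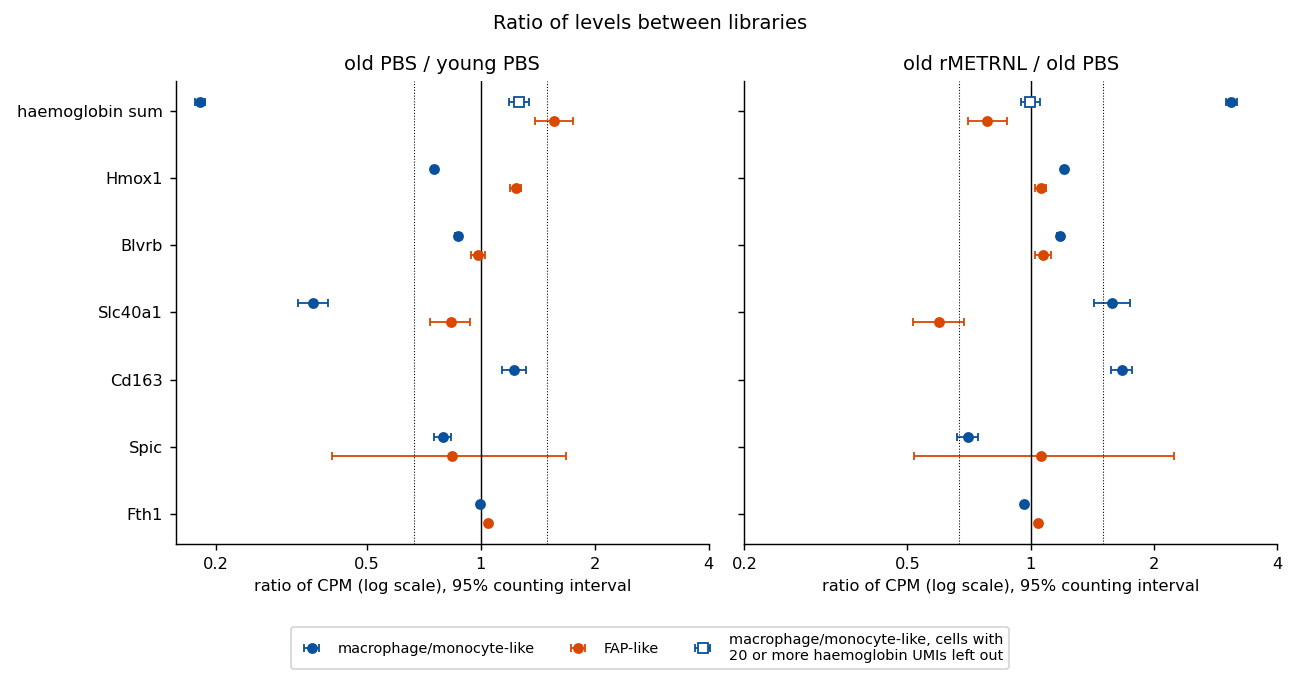
Ratio of CPM between libraries on log scales for the haemoglobin sum and 6 genes, with 95% counting intervals, in macrophage/monocyte-like and FAP-like cells. Dotted lines mark 1.5-fold either way, and Cd163 of FAP-like cells is left out for its 48 UMIs. The open squares, haemoglobin without the cells of 20 or more UMIs, lie at 1.26 and 0.999, far from the filled points at 0.181 and 3.09.

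Other genes of haem and iron metabolism were read from 8 lists of 48 genes, of which 43 had 50 UMIs in macrophage/monocyte-like cells. With age 4 were past 1.5-fold higher and 3 lower, where 6.54% of all genes were higher and 6.89% lower. With treatment 2 were higher and 2 lower, where the shares of all genes were 5.91% and 3.86%. The counts were thus close to the background. In haem synthesis 2 of 9 were lower with age. Uros was at 4.12, 2.73 and 3.82 CPM (age ratio 0.662, 0.565 to 0.775). The other was Alas2, with 42, 15 and 45 UMIs, of which 1, 4 and 8 lay outside the haemoglobin-rich cells. Without those cells it was at 0.0103, 0.0409 and 0.0716 CPM, so the direction with age turned, on too few UMIs for a call. Alas1, the enzyme that starts haem synthesis in other tissues, was at 59.9, 74.4 and 63.2 CPM, with ratios of 1.24 and 0.849.

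No gene for uptake and transport of haem or haemoglobin was past 1.5-fold among the 6 with 50 UMIs. Lrp1, a receptor for haem bound to haemopexin, was at 371, 496 and 410 CPM (1.34 and 0.827). In haem breakdown Hmox2, the constitutive haem oxygenase, was at 157, 111 and 150 CPM. Its ratios of 0.705 (0.688 to 0.723) and 1.36 (1.33 to 1.39) lay on the same sides of 1 as those of Hmox1 and short of 1.5.

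Of 10 genes of iron uptake, 3 were past 1.5-fold higher and 1 lower with age. Steap4, a metalloreductase, was at 1.64, 3.89 and 2.77 CPM, an age ratio of 2.37 (1.96 to 2.87). In FAP-like cells, where it was far higher, it stood at 140, 243 and 182 CPM, in the same order of libraries. Slc11a2, the endosomal iron transporter DMT1, was at 48.5, 73.1 and 49.8 CPM, a ratio of 1.51 (1.45 to 1.56) with age and 0.681 (0.657 to 0.705) with treatment. Lcn2 and Tfr2, with 53 and 79 UMIs in all, were past 1.5-fold in both contrasts in opposite directions. Lcn2 had ratios of 1.78 (0.891 to 3.71) and 0.490 (0.235 to 0.979), Tfr2 of 0.516 (0.257 to 0.994) and 2.04 (1.09 to 4.02), and the interval of Lcn2 with age held 1. Both were also higher in FAP-like cells, with 2.63, 1.71 and 1.74 CPM of Tfr2 and 7.24, 9.10 and 12.9 CPM of Lcn2. The part that FAP transcripts have in the macrophage levels of Steap4, Tfr2 and Lcn2 was not tested. Trf, transferrin, was at 267, 323 and 249 CPM.

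In storage none of 4 was past 1.5-fold, and Ftl1 was at 16111, 15904 and 16360 CPM, as level as Fth1. Of the genes for export and oxidation only Cp, the ferroxidase ceruloplasmin that works with ferroportin, had 50 UMIs. It was at 9.71, 17.4 and 14.3 CPM, an age ratio of 1.79 (1.65 to 1.94). FAP-like cells had more of it, at 51.5, 83.1 and 72.1 CPM in the same order of libraries, and their part in the macrophage level was not tested. None of 6 sensing genes passed 1.5-fold. The transcription factor Nfe2l2, which activates Hmox1, was at 465, 606 and 477 CPM (1.304 and 0.786), and its haem-sensing counterpart Bach1 at 301, 389 and 288 CPM (1.29 and 0.740). Both were highest in old PBS, and so were Aco1, Ireb2 and Hif1a of the same list, while Fbxl5 was highest in old rMETRNL. Hmox1 was lowest in old PBS by summed UMIs, a difference nearly absent with the mean of per-cell CPM. Among genes of mitochondrial iron, Slc25a28 was at 57.4, 81.6 and 54.2 CPM, past 1.5-fold lower with treatment at 0.663 (0.642 to 0.686), and Iscu at 91.2, 84.1 and 92.1 CPM.

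Genes with a like pattern were taken as those with the highest Pearson correlation of log2 CPM over 39 points. These were the 13 sub-clusters of macrophage/monocyte-like cells in the 3 libraries, which share libraries and depth. Set against the other sub-clusters, 6 and 14 came nearest the FAP markers and 8 the myocyte markers. Sub-clusters 7 and 9 matched no marker list. For Cd163 they were Etv1 (r = 0.96), F13a1, Hgsnat, Mrc1 and Cmah. For Hmox1 they were Rabgap1l (0.85), Slc12a7, Mtss1, Rhobtb1 and Enpep, and for Blvrb Osbpl11 (0.91), Aldh7a1, Vps26c, Stard8 and Bin1. For Slc40a1 they were Lbx2 (0.88), Ggact, Slc7a4, Zbtb34 and Eps15, and for Spic Nlrc4 (0.81), Cryba4, Gm6377, Slc15a4 and Dyrk2. For the haemoglobin sum over 28 points, the classes of at least 50 cells in each library, the highest was Dcaf11, at 0.79. The haemoglobin-rich cells were part of these points, so single cells set some of them. The Ckm cluster of old PBS was at 7040 CPM of haemoglobin with its 1 rich cell and at 132 CPM without it.

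Among the members themselves, Slc40a1 and Blvrb were the closest pair (r = 0.81), followed by Hmox1 and Cd163 (0.78) and Cd163 and Blvrb (0.71). Fth1 ran against the others, with r from -0.69 for Cd163 to -0.13 for Spic. Spic was closest to Slc40a1 (0.51), with lower values for Hmox1 (0.26), Cd163 (0.20) and Blvrb (0.18). These values describe 39 points of unequal depth and carry no p-value.

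Transcripts of other cells were present in the macrophage/monocyte-like cells of each library. The 10 FAP markers summed to 401, 365 and 407 CPM there with none at 0, and the 10 myocyte markers to 52.9, 90.6 and 57.3 CPM with none at 0. The 8 neutrophil markers summed to 86.4, 73.9 and 68.0 CPM with none at 0, the 10 endothelial markers to 26.1, 27.5 and 25.3 CPM with none at 0, and the 10 T/NK markers to between 1.37 and 1.84 CPM with Ncr1 at 0 in old PBS. The 9 erythroid markers summed to 6.77, 4.77 and 5.59 CPM, with Epb42 at 0 in all 3. Bpgm alone gave 552 of 660, 367 of 467 and 524 of 625 of the UMIs in this sum. Of these Bpgm UMIs, 538, 366 and 505 lay outside the haemoglobin-rich cells. The sum was thus mostly Bpgm and does not measure red cell transcripts. The part of transcripts of other cells in the differences of Slc40a1, which FAP-like and myocyte-like cells also carry, was not tested.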

How the data were processed

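Single-cell RNA-seq of injured tibialis anterior muscle was analysed for 3 libraries, 1 per group, each from 3 pooled samples per the study's methods. The authors deposited UMI counts per gene and barcode for each library, not normalized, made with Cell Ranger. The file headers give version 5.0.0, the submitters' processing notes give 5.0.0 and 3.1.0 and the build mm10. Columns of other series numbered 0.

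Kept barcodes had 500 genes or more and less than 10% of UMIs from mitochondrial genes. The automatic Scrublet threshold in scanpy 1.11.5 marked 1, 1 and 2 barcodes, so the highest scores at 0.8% per 1000 barcodes were removed instead, 1179, 1261 and 1559 in young PBS, old PBS and old rMETRNL. Cells were clustered on 2000 variable genes, 30 principal components and 20 neighbours (Leiden, resolution 0.8), without the 10 members and the 48 pathway genes. The 22 clusters were named from marker lists as X-like. UMIs were summed per class and library and given as CPM with exact Poisson intervals, shares with Clopper-Pearson intervals, and ratios with exact conditional intervals (scipy 1.17.1). With 1 library per group there was no test and no p-value. The scripts were tested on simulated data. No correction for free RNA was made, and doublet removal can leave mixed barcodes.

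The members and lists were chosen with earlier results of these data known. Named were all 10 members, the pathway genes past 1.5-fold with at least 50 UMIs and the highest of each list, and the 5 genes most alike in pattern (Pearson r). Bach1 and the genes of haemoglobin-rich barcodes were named after their values were seen. Sequences came from RefSeq promoters (GRCm38.p6) and the GENCODE M21 annotation of GRCm38. Alternatives were other cell filters, clusterings, scalings, folds and UMI minimums, and leaving out haemoglobin-rich barcodes.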

Additional observations from a re-analysis of the deposited data

Results flagged for a closer look

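Haemoglobin with age pointed in opposite directions in the 2 largest classes, and the difference between classes was not tested. The ratio of old PBS over young PBS was 0.181 for the haemoglobin sum in macrophage/monocyte-like cells and 1.56 in FAP-like cells. It was 0.184 and 1.53 for Hba-a1, 0.185 and 1.56 for Hbb-bs, and 0.142 and 1.78 for Hbb-bt. Without the cells with 20 or more haemoglobin UMIs the ratio of the sum in macrophage/monocyte-like cells was 1.26.

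Slc40a1 also pointed in opposite directions with treatment. The ratio of old rMETRNL over old PBS was 1.58 in macrophage/monocyte-like cells and 0.596 in FAP-like cells, and this difference was not tested either.

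Most haemoglobin UMIs lay outside the kept cells. The barcodes left out held 76.8%, 88.8% and 87.0% of them in the libraries of young PBS, old PBS and old rMETRNL.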

How the results depend on the processing

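The haemoglobin sum of all kept cells followed a few barcodes. Its age ratio, 0.738, became 5.66 with a minimum of 200 genes and a 20% limit on mitochondrial UMIs, 0.785 with called doublets kept, 1.002 with the mean of per-cell CPM, 0.765 with median-of-ratios size factors, 1.61 without barcodes of 1% or more haemoglobin, 1.55 with every barcode and 1.59 without cells of 20 or more haemoglobin UMIs. Its treatment ratio, 0.844, became 0.111, 1.29, 0.952, 0.816, 0.822, 0.727 and 0.876 under the same 7 settings, and 0.461 with 1000 genes and a 5% limit.

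In macrophage/monocyte-like cells, leaving out barcodes of 1% or more haemoglobin turned the age ratio to 1.03 for Hba-a1, 1.27 for Hba-a2, 1.23 for Hbb-bs, 1.03 for Hbb-bt and 1.18 for the sum. Leaving out cells of 20 or more haemoglobin UMIs gave 1.17, 1.40, 1.304, 1.03 and 1.26. Under both, the treatment ratio was 0.972 for Hba-a1, 0.984 for Hbb-bs and 0.999 for the sum, and members past 1.5-fold went from 5 to 1 with age and from 6 to 2 with treatment. The settings with 20 or more UMIs and with the same cluster weights were chosen after seeing the data.

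All genes past 1.5-fold numbered 1924 with age and 1401 with treatment, 7248 and 6736 with no minimum UMI count, and 618 and 357 at 2-fold. At the same cluster weights the split went from 937 higher and 987 lower to 948 and 593 with age, and from 847 and 554 to 501 and 639 with treatment.

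For the 6 other members, 17 of 24 ratios held their side of 1 and 17 held their call in all alternatives. Of 20 ratios of the globin genes and their sum, 10 held their side and 1 held its call. The age ratio of Slc40a1 ran from 0.354 to 0.439 over 12 alternatives and passed 1.5-fold in each. Its treatment ratio ran from 1.40 to 1.66 over the same 12 and fell short of 1.5 with the mean of per-cell CPM (1.40) and at the same cluster weights (1.49). It also fell short, at 1.36, without the 10 highest cells of each library, which was not among the 12. The treatment ratio of Cd163 ran from 1.11 to 1.90, lowest at the same cluster weights. No paired analysis was possible because each group is 1 library. No replicate could be left out, and the spread between mice is unknown.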
